A study of Mus musculus with 12 samples.

Results

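The genes described here are 8 genes of cholesterol synthesis, Srebf2, Hmgcs1, Idi1, Fdps, Fdft1, Sqle, Lss and Cyp51, which were chosen by name. All 8 were found among the 16738 genes of the authors' comparison table for inguinal white fat (iWAT, a depot under the skin) and among the 15363 genes of their table for brown fat (BAT). They are 7 enzymes and the transcription factor that controls them, and no receptor for cholesterol uptake is among them, so uptake is described below from a separate list. The study compared 4 groups of 3 white fat libraries from C57BL/6 mice: KO females, WT females, KO males and WT males. KO mice lacked NDUFS4, an accessory subunit of respiratory complex I, in adipocytes, WT mice were the controls, and all were fed a high-fat diet at room temperature. The sources used here do not name the transgene that drove the deletion, the age of the mice or the number of animals in a library.

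Each value below is an interaction on the log2 scale, the KO effect (KO against WT) in females minus that in males, read from the authors' deposited table of each depot. A value above 0 means that the knockout moved the gene's message upward in females relative to what it did in males. It does not say in which sex or genotype the message changed. The order of the sexes was read from the tables' names, so every sign rests on that reading. Values per library were not analysed here, because the names of the library columns match no label. Levels are therefore given as the authors' mean over all libraries of a table, with no spread, and how the members vary together across libraries was not analysed here. The labels describe white fat libraries and none of brown fat, so the groups behind the brown fat table are taken from its name alone. P-values set each interaction against an error from the authors' fit, which draws partly on other genes. What spread between animals this error reflects is unknown, and so is depth.

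Cells make cholesterol from acetyl-CoA in the endoplasmic reticulum and cytosol. Hmgcs1 makes HMG-CoA, from which mevalonate is formed. Idi1 and Fdps turn mevalonate's products into farnesyl diphosphate, Fdft1 and Sqle make squalene and its epoxide, Lss closes the rings to lanosterol, and Cyp51 removes a methyl group from lanosterol. Srebf2 encodes SREBP-2, a membrane-bound factor that is cut and moves to the nucleus when sterols are scarce, where it switches on these enzymes and the genes of lipoprotein uptake. Adipocytes store much of the body's free cholesterol in and around their lipid droplets, take up most of it from lipoproteins and make comparatively little.

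SREBP-2 is known to act through sterol regulatory elements together with the factors NF-Y and Sp1, and the promoters were searched for their motifs. The RefSeq table, on build GRCm38.p6, held 5 of the 8 members: Srebf2, Hmgcs1, Idi1, Lss and Cyp51. The 250 bases before the transcription start were searched on both strands for the sterol regulatory element (SRE, TCACNCCAC), the NF-Y box (CCAAT) and the Sp1 box (GGGCGG). The shorter SRE core TCACCCCA, which overlaps the SRE, was added after the Srebf2 sequence had been read. The promoters of Hmgcs1 and Srebf2 are shown because they are the ones with an exact match to the SRE or its core. SRE, core and NF-Y boxes are in capitals, 5′ to 3′.
Hmgcs1 (chr13:119690101-119690350, plus strand): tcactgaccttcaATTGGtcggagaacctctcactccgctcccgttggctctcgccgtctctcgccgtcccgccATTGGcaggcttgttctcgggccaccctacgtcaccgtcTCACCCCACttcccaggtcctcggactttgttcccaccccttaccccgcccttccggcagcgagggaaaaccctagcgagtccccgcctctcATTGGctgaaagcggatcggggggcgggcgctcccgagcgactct
Srebf2 (chr15:82147019-82147268, plus strand): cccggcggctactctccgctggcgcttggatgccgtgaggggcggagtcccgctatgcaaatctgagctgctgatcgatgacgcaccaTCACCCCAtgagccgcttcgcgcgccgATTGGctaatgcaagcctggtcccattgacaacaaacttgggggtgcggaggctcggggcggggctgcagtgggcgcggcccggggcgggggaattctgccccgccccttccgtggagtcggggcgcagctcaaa
Hmgcs1 held the SRE as TCACCCCAC, 137 to 129 bases before the start, and the NF-Y box in 3 places. Srebf2 held the core alone, 162 to 155 bases before the start, followed by 1 NF-Y box. Idi1, Lss and Cyp51 had no exact match to the SRE or the core in this window. Each had an NF-Y box, shown in capitals in 30 bases around the box nearest the start.
Idi1 (chr13:8885576-8885605, plus strand): catggtccaaggtgccATTGGctggcgacc
Lss (chr10:76531531-76531560, plus strand): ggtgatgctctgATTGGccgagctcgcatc
Cyp51 (chr5:4104709-4104738, minus strand): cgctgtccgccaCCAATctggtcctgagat
Of all 32851 promoters in that table, 1.05% held the SRE, 1.34% the core, 33.8% the NF-Y box and 32.7% the Sp1 box. Of the 5 members 1 held the SRE and 2 the core, and all 5 held the NF-Y box and the Sp1 box. A match of letters describes the sequence and is not a measured binding site. Elements that differ from these letters were not searched for, so a promoter without a match may still hold a variant element.

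In white fat, the enzymes lay on one side of 0 and their regulator on the other, and none of the 8 members passed the test. All 7 enzymes had an interaction above 0 in the authors' deposited table, between 0.12 and 1.45, and Srebf2 was below 0, although Sqle falls to -0.01 when the median of all genes, 0.13, is subtracted. The median of the 8 members was 0.69, against 0.13 over all genes of the table. At an adjusted p of 0.05 from limma 0 of 8 members were called, against 4.75% of all genes, 1.06% above 0 and 3.69% below. At an unadjusted p of 0.05 it was 1 of 8, Srebf2, against 24.5% of all genes, 11.9% above 0 and 12.6% below. The members' share called was thus no higher than the background. Of all genes, 55.9% lay above 0 with no threshold applied.

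**Figure D1:**
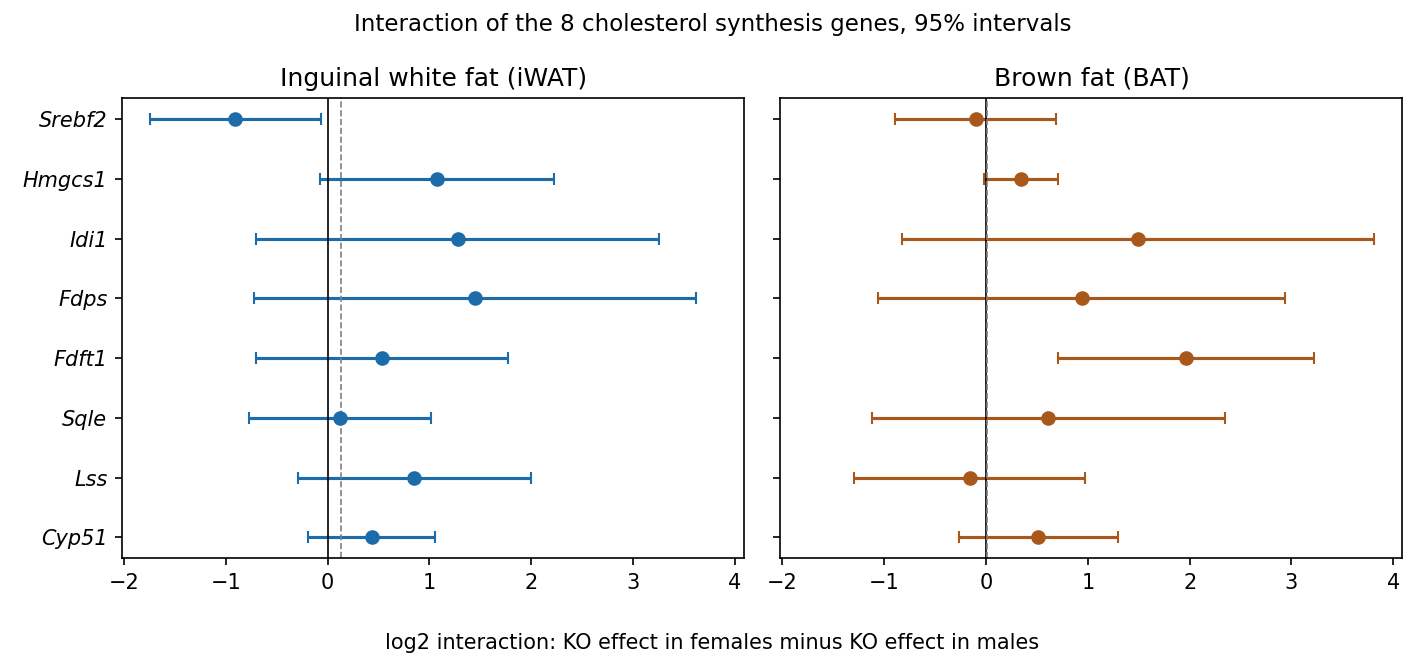
Log2 interaction (KO effect in females minus KO effect in males) of the 8 members in white fat (left) and brown fat (right), from the authors' deposited tables. Points are estimates, bars 95% intervals, and the dashed line is the median of all genes of the table. In white fat the 7 enzymes lie above 0, Sqle no longer once that median is subtracted, and the interval of Srebf2 lies below 0, from -1.74 to -0.07, while in brown fat the interval of Fdft1, from 0.71 to 3.22, is the one that does not cross 0; no gene passed the adjusted p.

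In white fat the called markers of other cells were those of T cells and B cells and 1 Schwann cell gene, all below 0. All 8 T cell markers were below 0 and called (median -8.00, median mean log2 expression 2.20), and all 6 B cell markers were below 0 with 3 called (median -8.51), and Srebf2 was below 0 with them. All 6 B cell markers passed an unadjusted p of 0.05. All 5 brown adipocyte markers (median 3.29, median error 2.79), 7 skeletal muscle markers (3.71, error 2.81) and 6 mammary epithelial markers (2.34, error 2.03) were above 0 with none called. At an unadjusted p of 0.05, 2 of the muscle markers passed and none of the brown adipocyte and mammary markers did. Of all white fat genes, 11.9% passed that p above 0. Myl1, the muscle marker with the smallest error, was at 1.88 ± 0.56. The 7 member enzymes were also above 0, Sqle not so once the median of all genes is subtracted. All 4 fibroblast markers (median 0.55) and 4 of 5 endothelial markers (list median 0.64) were above 0 with none called. Of the endothelial markers 2 above 0 passed an unadjusted p of 0.05, and none of the fibroblast markers did. Of 5 Schwann cell markers 4 were above 0 (list median 1.34), while Mbp was called below 0 (-1.05 ± 0.24, adjusted p = 0.0362 from limma). The 6 adipocyte markers were above 0 with a median of 0.32, and the 6 macrophage markers had a median of -0.23. None of these adipocyte and macrophage markers passed an unadjusted p of 0.05. The part of such cells in the members' values was not tested. In brown fat no marker of these lists was called. The 6 adipocyte markers were above 0 there (median 0.29, 3 at an unadjusted p of 0.05), as 6 of the 8 members were. The 4 fibroblast markers were below 0 (median -0.81, 2 at that p). Macrophage markers had a median of -0.83 (3 below 0 at that p) and skeletal muscle markers one of -3.27 (3 below 0 at that p). Of the 5 endothelial markers 1 above and 1 below 0 passed that p. None of the brown adipocyte, Schwann cell, T cell and B cell markers did. Of all brown fat genes 6.51% passed it, 3.33% above 0 and 3.18% below. The T and B cell lists had 3 measured markers each in brown fat. In tissue RNA, fewer cells of a type and less RNA per cell cannot be told apart. Adipoq, which defines adipocytes, had a mean log2 expression of 11.12 in the white fat table and 10.35 in the brown fat table, and Ucp1, which defines brown adipocytes, 4.36 and 12.54, in the authors' deposited tables. Ndufs4 itself had an interaction of 0.89 ± 0.38 in white fat (p = 0.0348, adjusted p = 0.169 from limma) in the authors' deposited table. In brown fat it was at -0.10 ± 0.14 (adjusted p = 0.946), so Ndufs4 was called in neither depot. These values do not show its level in KO or WT mice.

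Srebf2 (ENSMUSG00000022463.9, chromosome 15, 82031382 to 82089580, GRCm39) was the regulator and had the smallest p of the 8 in white fat. The authors' deposited table gave it an interaction of -0.91 ± 0.39 (standard error, p = 0.0358, adjusted p = 0.171 from limma). Its 95% interval ran from -1.74 to -0.07. A size of 1.45 would have been needed for it to pass the adjusted p with that error. In brown fat the authors' deposited table gave Srebf2 -0.10 ± 0.39 (adjusted p = 0.980). The interaction in white fat minus that in brown fat was -0.80 ± 0.55 (adjusted p = 0.491), so a difference between depots was not detected.

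A second gene overlaps the Srebf2 locus. Gm49502, a gene of the annotation class TEC on the same strand, overlaps Srebf2 by 2110 bases in the deposited coordinates. That overlap is of whole gene spans, introns included, so shared exon sequence is not shown. Among GENCODE M21 transcripts no other gene matched the longest coding Srebf2 transcript over at least 200 bases at 95% identity. It was singled out after its value was seen. The authors' deposited table gave Gm49502 an interaction of -4.32 ± 1.12 in white fat (adjusted p = 0.0454), so it passed where Srebf2 did not. Its mean log2 expression there was 0.51, against 5.41 for Srebf2. In brown fat the authors' deposited table had Gm49502 at -0.33 ± 1.06 (adjusted p = 0.980). The sources used here do not say how the counting assigned reads in the shared stretch, and the part of such reads in the Srebf2 value was not tested.

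The mevalonate enzymes among the members differed more in level and precision than in direction. Hmgcs1 (ENSMUSG00000093930.3, chromosome 13, 120151915 to 120169796), the enzyme that makes HMG-CoA, had an interaction of 1.08 ± 0.53 in white fat in the authors' deposited table (p = 0.0649, adjusted p = 0.231). In brown fat the authors' deposited table gave Hmgcs1 0.34 ± 0.18 (p = 0.0638, adjusted p = 0.784), an error a good deal smaller than that in white fat. Its error in white fat was large for its level: it exceeded that of 97.0% of the 203 genes whose mean expression lay within 0.5 log2 of its own, and in brown fat that of 94.5% of 145 such genes. For Hmgcs1 the error of the interaction was thus larger than for most genes as abundant. How far its libraries varied within groups was not read.

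Idi1, which interconverts the 5-carbon isoprene units, and Fdps, which joins them to farnesyl diphosphate, had the largest estimates among the members in white fat and the widest errors. Idi1 (ENSMUSG00000058258.15, chromosome 13, 8935537 to 8942487) was at 1.28 ± 0.92 in white fat in the authors' deposited table (adjusted p = 0.406) and at 1.50 ± 1.14 in brown fat (adjusted p = 0.878). Fdps (ENSMUSG00000059743.13, chromosome 3, 89000895 to 89009266) was at 1.45 ± 1.01 in white fat in the authors' deposited table (adjusted p = 0.392) and at 0.94 ± 0.98 in brown fat (adjusted p = 0.916). With these errors an interaction of 3.42 for Idi1 and 3.77 for Fdps would have been needed to pass in white fat, and 5.92 and 5.11 in brown fat.

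Both genes share near-identical sequence with other annotated genes, Fdps over more of its length than Idi1. Among the transcripts of GENCODE M21 (build GRCm38), 5 other genes matched the longest coding Fdps transcript over at least 200 bases at 95% identity or more, 4 of them over at least 50% of its length. The closest processed pseudogene, Gm3571, matched 1062 of 1382 bases at 98.9% identity, and Gm43738, annotated as protein-coding, was identical over 929 bases. For Idi1 there were 3 such genes, among them the processed pseudogene Gm13502, identical over 684 of 3027 bases, and 0 of the 3 covered 50% of the transcript. None of these matching genes of Fdps or Idi1 is among the genes of either table. Whether any of them overlaps Fdps or Idi1 at its own locus was not checked. The sources used here do not say how reads that match several genes were counted, so the levels and interactions of Fdps and Idi1 are uncertain.

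**Figure D2:**
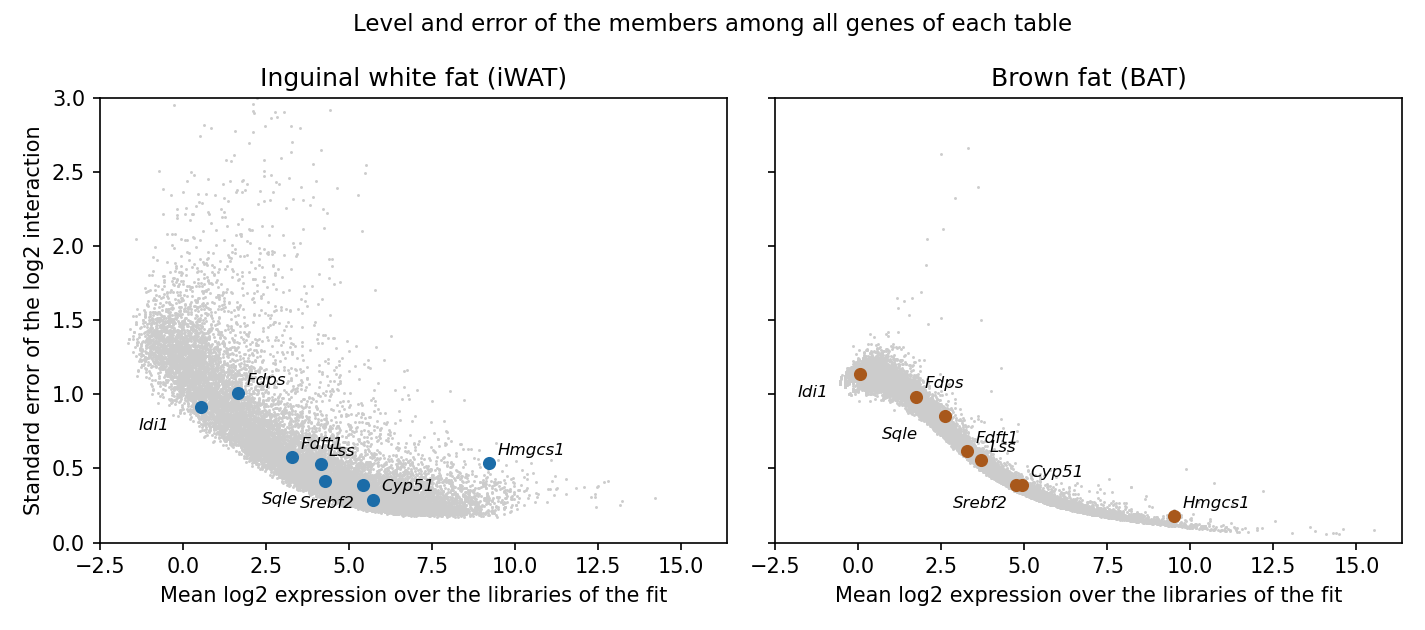
Mean log2 expression over the libraries of the fit (horizontal axis) and standard error of the log2 interaction (vertical axis) for all genes (grey) and the 8 members (coloured), white fat left and brown fat right, from the authors' deposited tables. Idi1 and Fdps sit at the low end of expression with errors of 0.92 and 1.01 in white fat, and Hmgcs1 sits above most genes of like level; 32 white fat genes with an error above 3 lie outside the axis.

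The squalene and lanosterol steps included the member with the smallest p in either depot. Fdft1 (ENSMUSG00000021273.12, chromosome 14, 63382599 to 63417027), squalene synthase, the entry to the branch that leads to sterols alone, was at 1.96 ± 0.62 in brown fat in the authors' deposited table (p = 0.00313, adjusted p = 0.540). Its 95% interval was 0.71 to 3.22, and 0.573% of the genes of that table had a smaller p. In white fat the authors' deposited table gave Fdft1 0.54 ± 0.58 (adjusted p = 0.591). The depot difference, -1.43 ± 0.84 (adjusted p = 0.414), did not pass. In brown fat, 0 of 8 members were called at an adjusted p of 0.05, against 0.013% of all genes, and 1 of 8, Fdft1, at an unadjusted p of 0.05, against 6.51%. Of all brown fat genes, 3.33% lay above 0 and 3.18% below 0 at that unadjusted p, and 51% lay above 0 with no threshold, against 6 of 8 members.

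Fdft1 also shares sequence with a neighbour. Ctsb, which encodes the lysosomal protease cathepsin B, lies on the opposite strand and overlaps it by 774 bases in the deposited coordinates. The authors' deposited table gave Ctsb a mean log2 expression of 9.76 in white fat and 9.11 in brown fat, against 3.29 and 3.27 for Fdft1. Its interaction was 0.20 ± 0.32 in white fat and 0.18 ± 0.13 in brown fat in the authors' deposited table. The sources used here do not give the strand setting of the counting, and without it reads of the pair in the shared stretch cannot be told apart. A processed pseudogene, Gm6781, also matched Fdft1 over 1249 bases at 97.4% identity.

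Sqle (ENSMUSG00000022351.15, chromosome 15, 59186926 to 59203041), squalene epoxidase, a second point of control in the pathway, was the member closest to 0 in white fat. The authors' deposited table gave it 0.12 ± 0.42 in white fat (adjusted p = 0.879) and 0.61 ± 0.85 in brown fat (adjusted p = 0.944). Lss (ENSMUSG00000033105.13, chromosome 10, 76367422 to 76392972), lanosterol synthase, was at 0.85 ± 0.53 in white fat (adjusted p = 0.337) and at -0.16 ± 0.56 in brown fat (adjusted p = 0.980) in the authors' deposited table. It was the one enzyme of the 7 with estimates on opposite sides of 0 in the depots, and their difference, 1.01 ± 0.77 (adjusted p = 0.543), did not pass.

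Cyp51 (ENSMUSG00000001467.6, chromosome 5, 4131145 to 4154746), lanosterol demethylase, gave close estimates in both depots. The authors' deposited table had it at 0.43 ± 0.29 in white fat (adjusted p = 0.369) and at 0.52 ± 0.39 in brown fat (adjusted p = 0.870). The depot difference was -0.08 with a 95% interval from -1.05 to 0.89, so differences of up to about that size remain possible. In white fat Cyp51 had the smallest error of the members, and an interaction of 1.08 would have been enough for it to pass. It overlaps Akap9 on the opposite strand by 166 bases.

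Set per kilobase of exon (all annotated exons of a gene joined, GENCODE M21), the authors' mean log2 expression ordered the members alike at the top and the bottom of both depots. For Fdps this length was 4208 bases, against 1382 for its longest coding transcript. Its level and its place near the bottom therefore depend on the length chosen. For Lss the length was 10787 bases, the longest among the members. Before this division the mean of Lss was 4.14 in white fat and 3.70 in brown fat. Those values lay above the 3.29 and 3.27 of Fdft1, so the place of Lss below Fdft1 also comes from the length. Whether the deposited means were already scaled by length is not stated in the sources used here. In white fat this level was 7.02 for Hmgcs1, 3.57 for Cyp51, 2.56 for Srebf2, 1.79 for Sqle, 1.21 for Fdft1, 0.71 for Lss, -0.41 for Fdps and -1.27 for Idi1. In brown fat it was 7.32 for Hmgcs1, 2.80 for Cyp51, 1.89 for Srebf2, 1.19 for Fdft1, 0.27 for Lss, 0.13 for Sqle, -0.33 for Fdps and -1.77 for Idi1. These levels carry no spread over libraries, so neighbours in the order cannot be told apart by a test. The depots' tables were scaled separately, and their levels stand side by side without a comparison.

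Across depots, 6 of the 8 members had both estimates above 0 (Hmgcs1, Idi1, Fdps, Fdft1, Sqle and Cyp51), Srebf2 had both below, and Lss differed, while centring on the median of all genes moves Sqle in white fat below 0. Of the 14502 genes in both tables, 32.2% were above 0 in both. The difference between depots passed an adjusted p of 0.05 for 0 of 8 members, against 0.248% of all shared genes, and an unadjusted p of 0.05 for none, against 15.7%. The smallest adjusted p for a depot difference among the members was that of Fdft1. Errors limited this comparison, with the standard error of the difference between 0.48 for Cyp51 and 1.46 for Idi1.

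**Figure D3:**
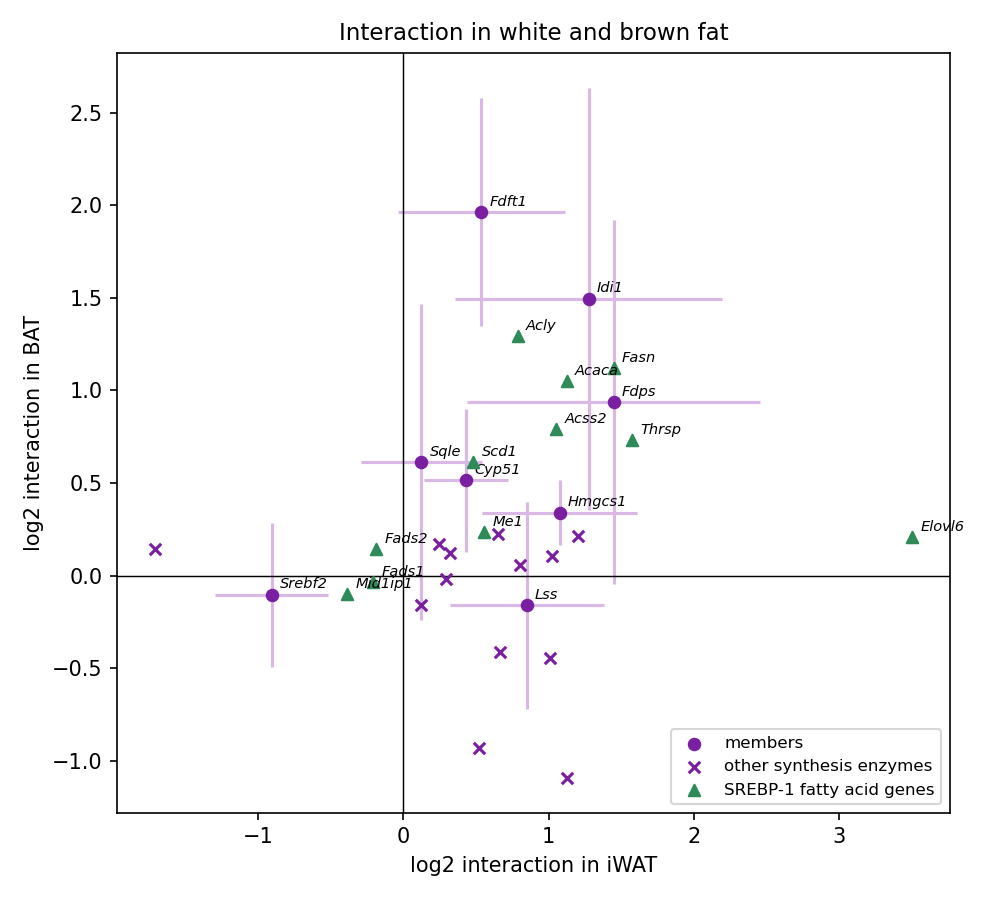
Log2 interaction in white fat (horizontal axis) and brown fat (vertical axis) for the members (filled circles, bars are standard errors), other synthesis enzymes (crosses) and 11 fatty acid genes known as SREBP-1 targets (triangles), from the authors' deposited tables. Of the members, 6 lie above 0 on both axes, Srebf2 lies below 0 on both, and Lss lies above 0 in white fat alone; Sqle in white fat does not stay above 0 when centred on the table's median.

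The other 14 enzymes of the pathway, listed by stage and not by how they moved, were placed beside the members. In white fat 12 of these 14 lay above 0 (Msmo1, a sterol demethylase, no longer so once centred) and 2 below, with a median of 0.59 against 0.13 over all genes, and 0 passed the adjusted p from limma, while 3 above 0 and 1 below passed an unadjusted p of 0.05, against 24.5% of all genes, 11.9% above and 12.6% below. In brown fat 8 lay above 0 and 6 below, with a median of 0.08 against 0.01 over all genes, and 0 passed either threshold. Acat2, the cytosolic thiolase that starts the pathway, was at 1.20 ± 0.46 in white fat in the authors' deposited table (p = 0.0203, adjusted p = 0.128) and at 0.22 ± 0.18 in brown fat. Hsd17b7, a reductase of the late sterol steps, was at 1.01 ± 0.44 in white fat (p = 0.0382, adjusted p = 0.177) and at -0.45 ± 0.39 in brown fat in the authors' deposited table. The Hsd17b7 difference between depots was 1.46 ± 0.59 (adjusted p = 0.218) and did not pass. Pmvk, phosphomevalonate kinase, was at 0.65 ± 0.29 in white fat in the authors' deposited table (p = 0.0444, adjusted p = 0.193).

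Among these 14, Lbr was the enzyme with the smallest p in white fat, and it lay below 0. Lbr, a protein of the inner nuclear membrane that also acts as a sterol reductase, was at -1.71 ± 0.46 in white fat (p = 0.00247, adjusted p = 0.0508), just short of the threshold, and at 0.14 ± 0.40 in brown fat in the authors' deposited table. Lbr passed in white fat when the adjustment ran over genes of higher expression alone (adjusted p = 0.0481), over protein-coding genes alone (0.0483) or after centring on the table's median (0.0370). The Lbr difference between depots was -1.85 ± 0.61 (adjusted p = 0.142) and did not pass.

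**Figure D4:**
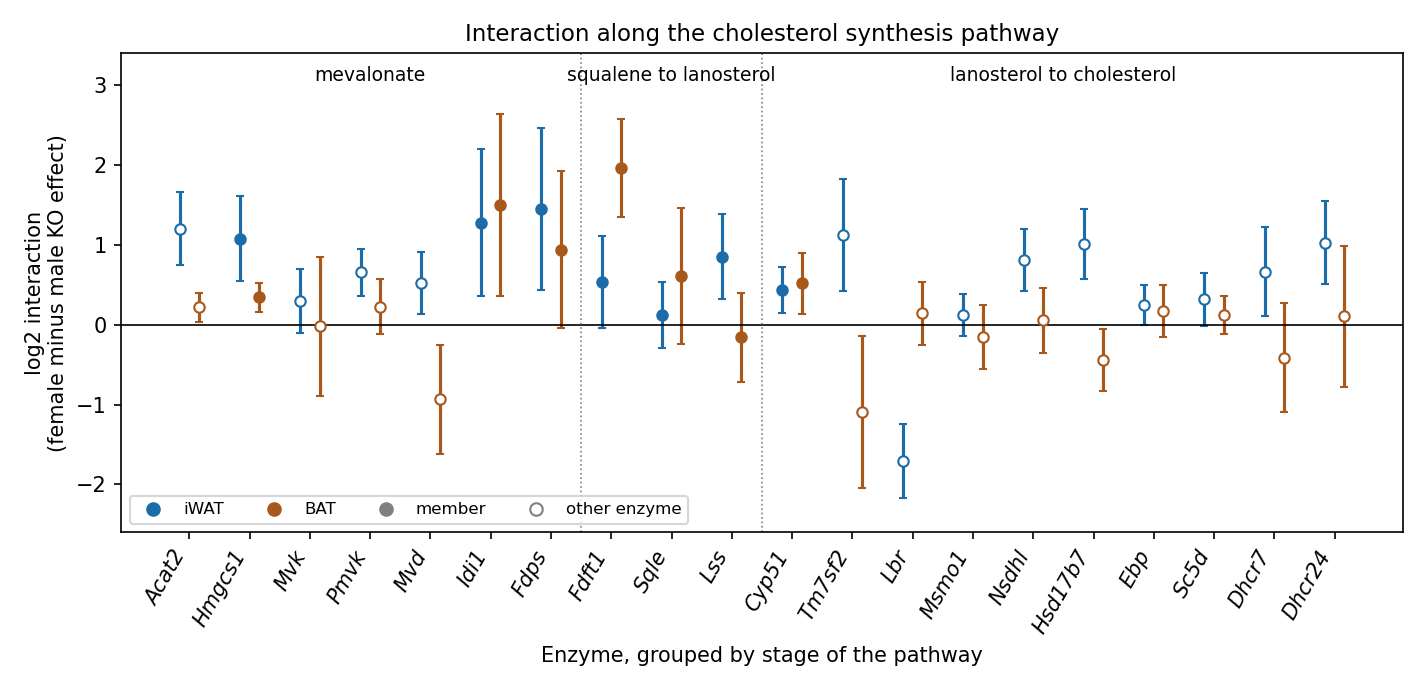
Log2 interaction of the synthesis enzymes reported here in the order of the pathway, white fat (blue) beside brown fat (brown), from the authors' deposited tables. Points are estimates, bars standard errors, and filled points are members. In white fat those shown lie above 0 with the exception of Lbr, and Sqle and Msmo1 no longer do when the median of all genes is subtracted, while in brown fat they lie on both sides of 0; no enzyme shown passed the adjusted p of 0.05 in either depot.

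Genes that control SREBP processing gave no call. Of 12 on the list, Srebf2 included, 7 lay above 0 and 5 below in white fat (median 0.14), and 0 passed the adjusted p, with 3 below 0 at an unadjusted p of 0.05, against 12.6% of all genes below 0 and 24.5% in either direction. In brown fat 8 lay above 0 and 4 below (median 0.19), and 0 passed, with 1 above 0 at an unadjusted p of 0.05, against 6.51% of all genes in either direction. Mbtps2, the protease that makes the final cut of SREBP, was at -1.01 ± 0.33 in white fat (p = 0.00784, adjusted p = 0.0807) and at 1.05 ± 0.64 in brown fat (adjusted p = 0.826) in the authors' deposited table. Rnf145, a ubiquitin ligase, was at -0.92 ± 0.27 in white fat in the authors' deposited table (p = 0.00518, adjusted p = 0.0665). Insig1, which holds SREBP in the endoplasmic reticulum and is itself an SREBP target, was at 0.93 ± 0.53 in white fat (adjusted p = 0.297) and at 0.61 ± 0.38 in brown fat (adjusted p = 0.827) in the authors' deposited table. Scap, the escort protein that senses sterols, was at 0.00 ± 0.29 in white fat in the authors' deposited table and was picked out after its value was seen.

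Uptake and lysosomal egress of cholesterol, the other side of the label under which the members were grouped, gave 1 call. Of 14 measured genes, 6 lay above 0 and 8 below in white fat (median -0.07), and 1 passed the adjusted p above 0, against 1.06% of all genes, with 2 above and 3 below 0 at an unadjusted p of 0.05, against 24.5% of all genes. The called gene was Vldlr, a receptor for triglyceride-rich lipoproteins, at 1.29 ± 0.34 in white fat (adjusted p = 0.0491) and at 0.47 ± 0.17 in brown fat (p = 0.0110, adjusted p = 0.659), as the authors' deposited table gave it. Its difference between depots was 0.83 ± 0.39 (adjusted p = 0.299) and did not pass. Centred on the table's median, Vldlr did not pass in white fat (adjusted p = 0.0633). Mylip, the ligase that marks lipoprotein receptors for breakdown, was at -0.78 ± 0.25 in white fat in the authors' deposited table (p = 0.00841, adjusted p = 0.0844). Gramd1a, which carries cholesterol from the plasma membrane to the endoplasmic reticulum, was at -1.47 ± 0.43 in white fat (p = 0.00439, adjusted p = 0.0626) and at 0.65 ± 0.53 in brown fat in the authors' deposited table. The Gramd1a difference between depots was -2.12 ± 0.68 (adjusted p = 0.128) and did not pass. In brown fat 8 of these 14 lay above 0 and 6 below, and 0 passed, with 1 above 0 at an unadjusted p of 0.05, against 6.51% of all genes.

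Storage, efflux and oxysterol genes lay on both sides of 0. In white fat 5 of 11 were above and 6 below (median -0.26), and 0 passed, with 1 above and 3 below at an unadjusted p of 0.05, against 24.5% of all genes. Ch25h, which makes 25-hydroxycholesterol, was at -3.17 ± 1.16 in white fat in the authors' deposited table (adjusted p = 0.117) and was not among the brown fat genes. The mean log2 expression of Ch25h in white fat was low, -0.40, against a median of 3.93 over all white fat genes. Soat1, which esterifies cholesterol, was at -1.13 ± 0.45 in white fat (p = 0.0245, adjusted p = 0.141) and at -0.06 ± 0.77 in brown fat in the authors' deposited table. Cyp27a1, which makes an oxysterol in mitochondria, was at 1.26 ± 0.49 in white fat (p = 0.0231, adjusted p = 0.137) and at 0.38 ± 0.37 in brown fat in the authors' deposited table. In brown fat 3 of 8 measured genes of this list were above 0 and 5 below, and 0 passed, with 1 below 0 at an unadjusted p of 0.05, against 6.51% of all genes. The 9 genes of the mevalonate branches that lead to ubiquinone, dolichol and prenylated proteins had 8 above 0 in white fat (median 0.45) and 5 in brown fat (median 0.18), and 0 passed in either, with 1 above 0 in white fat, where 24.5% of all genes passed an unadjusted p of 0.05, and 1 below in brown fat, where 6.51% did. Pdss1, which makes the ubiquinone side chain from farnesyl diphosphate, was at 1.64 ± 0.58 in white fat (p = 0.0139, adjusted p = 0.107) and at 0.53 ± 0.44 in brown fat in the authors' deposited table.

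Fatty acid genes known as targets of SREBP-1, the relative of SREBP-2, were set beside the members as a neighbouring branch of lipid synthesis. In white fat 8 of 11 lay above 0 (median 0.79) and 4 passed an unadjusted p of 0.05, all above 0, against 24.5% of all genes in either direction and 11.9% above 0. In brown fat 9 of 11 lay above 0 (median 0.61) and 5 passed that p, all above 0, against 6.51% in either direction and 3.33% above 0. The adjusted p was passed by 0 in either depot. Thrsp, a lipogenic protein, was at 1.58 ± 0.63 in white fat (adjusted p = 0.148) and at 0.73 ± 0.16 in brown fat (p = 5.52e-05, adjusted p = 0.131) in the authors' deposited table. Acly, which makes cytosolic acetyl-CoA for both fatty acids and cholesterol, was at 0.79 ± 0.54 in white fat (adjusted p = 0.379) and at 1.30 ± 0.43 in brown fat (adjusted p = 0.622) in the authors' deposited table. Fasn, fatty acid synthase, was at 1.45 ± 0.49 in white fat (adjusted p = 0.0918) and at 1.12 ± 0.40 in brown fat (adjusted p = 0.624) in the authors' deposited table. In brown fat the error of this list had a median of 0.35, against 0.59 for the members. Whether the lists differ was not tested.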

How the data were processed

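Total RNA was extracted with Zymo columns and its quality read on a Bioanalyzer, per the labels' protocols. The submitters' processing notes name featureCounts, limma and GRCm39. The sources used here give no versions, aligner, annotation, strand setting or normalisation. The deposited log2 values are limma's interaction and mean expression, the t-statistic is a score, and p-values and adjusted p-values are used as deposited, per the file headers. The 48 library columns of the 4 tables have names that match no label and were used in no step, so library totals and depth are not reported. Standard errors were computed as interaction over t, and intervals with the degrees of freedom that t and p imply, 13.4 in white and 33.9 in brown fat. The deposited adjusted p was checked to equal the Benjamini-Hochberg value. The size needed to pass is the error times the t at which 1 further gene would be called. Depots were compared by the difference of interactions over the root of the summed squared errors (Welch-Satterthwaite), taking the tables as independent. This comparison was adjusted over 14502 shared genes and tested on simulated data. The simulated errors were drawn independently for each depot, so the simulation did not test that independence. Near-identical sequences were sought with blastn 2.17.0. The work used scipy 1.17.1, pandas 2.3.3, numpy 2.4.6 and matplotlib 3.10.9 under Python 3.11.15.

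The members and lists were chosen with earlier results of these data known. All 8 members are named, and from each list the genes past an adjusted p of 0.05 and up to 3 with the smallest p per depot, of which the text gives some; a few genes of the lists enter the counts and are not reported here by name.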

Additional observations from a re-analysis of the deposited data

How the results depend on the processing

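No member was called in either depot with a threshold of 0.10, with genes averaging log2 of 10 or more (which leaves 5 members in white and 4 in brown fat), with centring on the median interaction, with Benjamini-Yekutieli adjustment or with protein-coding genes alone (chosen after seeing the data). No member's depot difference passed with the threshold of 0.10, the expression floor, centring or an error correlation of 0.5, the alternatives run for it. Adjusted p over these settings ran from 0.126 to 1 in white fat, from 0.483 to 1 in brown fat and from 0.101 to 0.965 for depot differences. Relative to the median of all genes Sqle in white fat turned to -0.0074, which follows from the subtraction. In white fat 1 of the 21 enzymes, Lbr, was called at the threshold of 0.10, with the expression floor, with centring and with protein-coding genes alone, against 0 as deposited. Vldlr was lost under centring and Benjamini-Yekutieli adjustment (adjusted p = 0.506). No paired analysis was possible because the library columns carry no replicate numbers that match the labels, and for the same reason leaving out replicates was not run.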
